A study of Mus musculus with 8 samples.

Results

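The genes described here are those of inhibitory transmission by gamma-aminobutyric acid (GABA): receptor subunits, enzymes and transporters of GABA, chloride transporters, scaffold and adhesion proteins of the inhibitory synapse, and factors of GABA-releasing interneurons. They were taken as a fixed list of 27 gene symbols from the 23393 named genes of the count tables, and all 27 were found. Prefrontal cortex was taken from C57BL6/J mice, aged 6 to 8 weeks, after injection of an adeno-associated viral vector (AAV9), and 8 total RNA libraries depleted of ribosomal RNA were read in 4 groups of 2. The shAdnp group is titled as Adnp and the shPogz group as Pogz, and both received a virus with a short hairpin RNA. Each has its own pair of controls that received a GFP virus, called the Adnp-set GFP and the Pogz-set GFP libraries. The labels name no control hairpin for the GFP virus, and the sources used here do not give the promoter of the hairpin, the injected cell types or the number of mice per library. Mouse numbers in the design text are 3 for knockdown and 2 for control, while 2 libraries of each group were analysed. The treatment label of both hairpin groups names ASH1L instead of Adnp or Pogz, so groups follow the titles.

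GABA is the main inhibitory transmitter of the cortex. It is made from glutamate by glutamate decarboxylases, loaded into vesicles by a transporter, cleared by uptake and broken down by a transaminase. GABA-A receptors are chloride channels built of alpha, beta and gamma or delta subunits, so the direction of their current depends on the chloride gradient set by cation-chloride cotransporters. GABA-B receptors are obligate pairs of G protein-coupled subunits that act through potassium and calcium channels. At the postsynapse gephyrin anchors many GABA-A receptors, while adhesion proteins align the synapse with its presynaptic partner.

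None of the 27 genes passed the test in any comparison, and most lay slightly below the controls in both sets. All 27 passed the filter on low counts, with 136 to 55034 reads per gene and library. With edgeR's quasi-likelihood test and Benjamini-Hochberg adjustment over 17415 genes, 0 of the 27 had an adjusted p under 0.05 in shAdnp against the Adnp-set GFP libraries, where the share over all tested genes was 0%. The same held in shPogz against the Pogz-set GFP libraries, again with 0% of all tested genes called. DESeq2 and limma-voom also called 0 of the 27 in each set. In shAdnp, 20 of the 27 had a log2 fold change below 0, against 52.3% of all tested genes, and 7 above, against 47.7%, with a median of -0.11 against -0.01 for all tested genes. In shPogz, 23 of the 27 were below 0, against 53.6% of all tested genes, and 4 above, against 46.4%, with a median of -0.24 against -0.02. A value below 0 was found in both sets for 18 of the 27 genes, against 32.3% of all tested genes. Both hairpin libraries were below both controls in each set for 6 of the 27 (Gabrb2, Gabrg1, Gabrg3, Gabbr1, Gphn and Abat), against 5.31% of all tested genes, and above both in each set for 0, against 7.12%. In whole-tissue RNA, fewer cells of a type and less RNA per cell cannot be told apart.

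**Figure D1:**
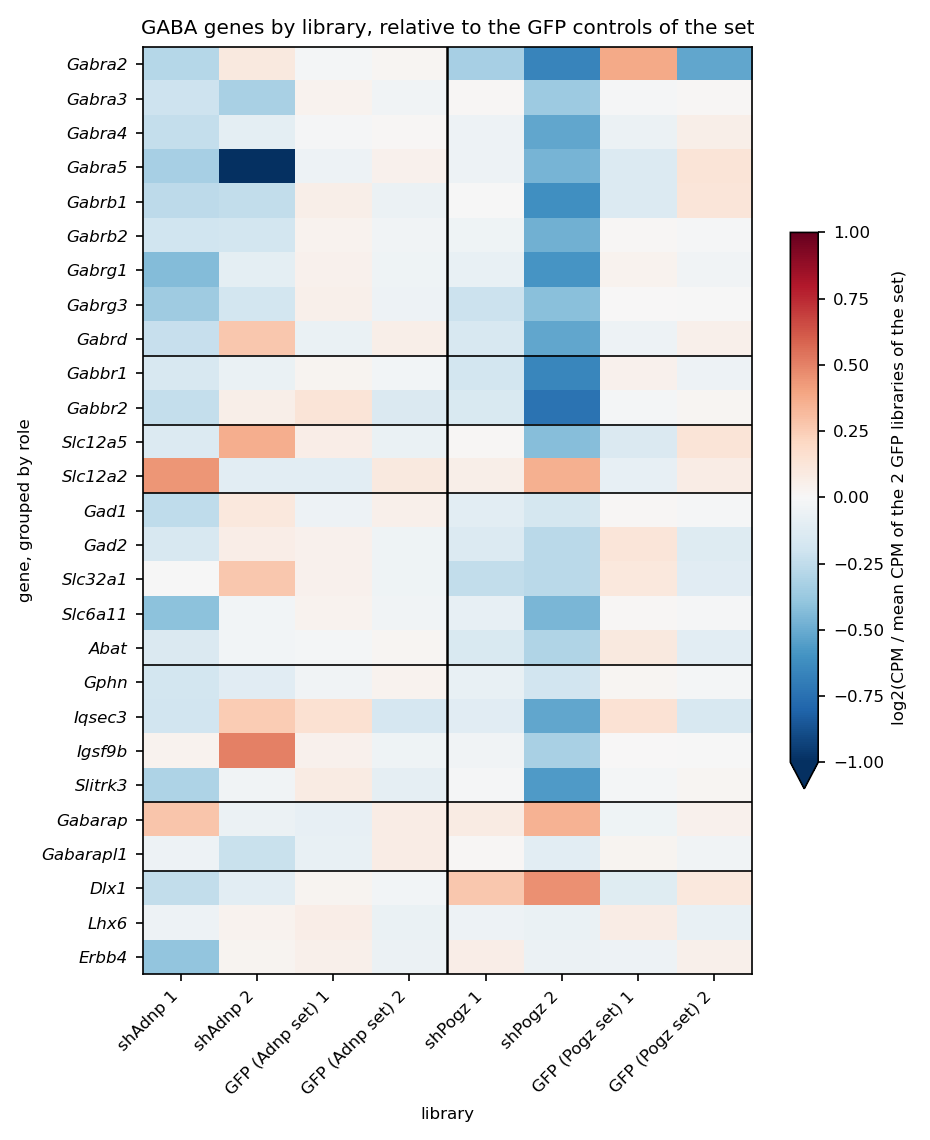
Level of each GABA gene (rows, grouped by role) in each of the 8 libraries (columns, hairpin libraries left of their GFP controls), as the log2 ratio of its CPM to the mean of the 2 GFP libraries of the set. The column of shPogz replicate 2 is the most uniformly blue, and Gabra5 in shAdnp replicate 2, at -1.75, lies beyond the colour scale.

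The libraries themselves differed. Total counts in named genes ran from 27501722 to 69002749, and 7.62% of the reads of shAdnp replicate 1 mapped to Rn45s, a ribosomal RNA precursor, compared with 0.134% to 0.74% of the reads of each other library. Adnp, the target named by the title, stood at 87.2 and 118 CPM (read counts scaled to a common library size with TMM factors) in shAdnp replicates 1 and 2, against 137 and 111 CPM in the Adnp-set GFP libraries (log2 fold change -0.27, SE 0.19; edgeR adjusted p = 0.768). Pogz stood at 49.01 and 37.3 CPM in shPogz, against 54.4 and 53.1 CPM in the Pogz-set GFP libraries (log2 fold change -0.32, SE 0.16; edgeR adjusted p = 0.667). The test thus did not show a lower target transcript in either set, and group names below are those of the titles. Ash1l, the gene of the treatment label, differed by -0.10 in shAdnp and by 0.11 in shPogz on the log2 scale. All 17 markers of excitatory neurons passed the filter, and their summed level was 2701 to 4449 CPM. As 12 of 14 striatal and 9 of 10 olfactory bulb markers also passed, the filter cannot check the tissue label. shPogz replicate 2 stood apart for the GABA genes, being the lowest of the 8 libraries for 19 of the 27, while it was the lowest for 25.5% of all tested genes. Leaving out 1 library moved several of the named values by over 1.5 times, and the values without it are given beside them.

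In shAdnp, the low values were found mainly among GABA-A receptor subunits. Of the 27 genes, 11 had both shAdnp libraries below both Adnp-set GFP libraries, against 21.0% of all tested genes, and 0 had both above, against 20.4%. By role, 7 of the 9 GABA-A subunits were in the lower group, with a median log2 fold change of -0.25 over the 9. At an unadjusted p under 0.05 there were 0 of the 27 by edgeR, against 1.69% of all tested genes lower and 6.67% higher. DESeq2 gave 0 and limma-voom 2, and the share of all tested genes was not counted for these tools. The count at an unadjusted p under 0.05 changed with the library left out, and the share of all tested genes in those fits was not counted. The median over the 27 was -0.02 without shAdnp replicate 1 and -0.20 without shAdnp replicate 2. Taken singly, shAdnp replicate 1 was below both controls for 21 of the 27 genes (39.8% of all tested genes), and shAdnp replicate 2 for 13 (38.0%) and above both for 8 (39.2%).

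In shPogz, the low values were spread over GABA-A and GABA-B subunits and the genes of GABA synthesis and clearance, and they rested largely on replicate 2. Both shPogz libraries were below both Pogz-set GFP libraries for 13 of the 27, against 21.3% of all tested genes, and above both for 2 (Dlx1 and Gabarap), against 19.0%. Gabbr1 and Gabrg3 had an unadjusted p under 0.05, both lower, against 2.65% of all tested genes lower and 4.05% higher. DESeq2 gave 2 and limma-voom 3 at that level, and the share of all tested genes was not counted for these tools. The count changed with the library left out, most of all with either shPogz library. Those fits leave a single library in a group, and no share of all tested genes was counted. Their counts are therefore given only as ranges, with the dependence on processing, and no conclusion is drawn from them. The median of -0.24 became -0.06 without shPogz replicate 2, -0.38 without shPogz replicate 1, -0.15 without Pogz-set GFP replicate 1 and -0.17 without Pogz-set GFP replicate 2. Taken singly, shPogz replicate 1 was below both controls for 13 of the 27 (31.4% of all tested genes), and shPogz replicate 2 for 23 (41.3%).

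**Figure D2:**
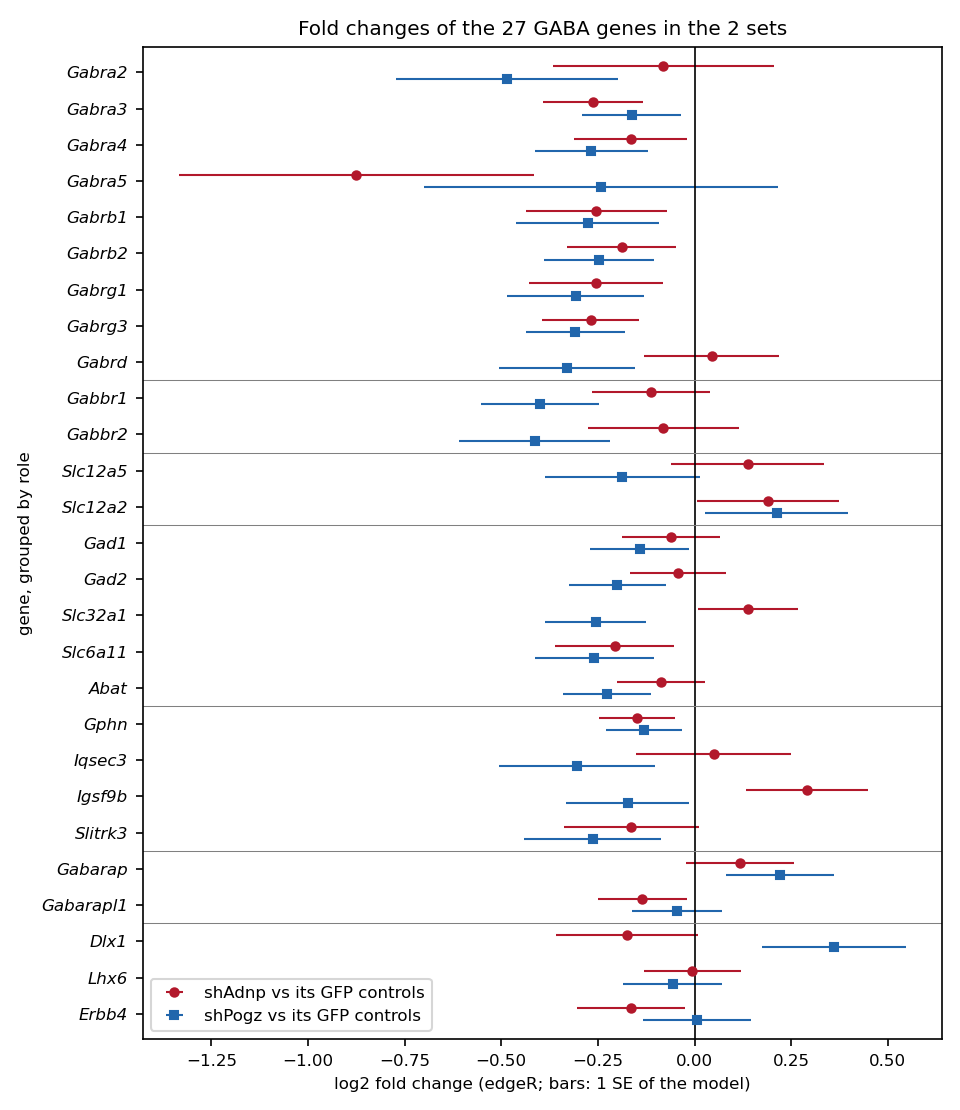
Log2 fold change of each GABA gene in shAdnp (red circles) and in shPogz (blue squares) against the GFP libraries of its own set, with bars of 1 standard error of the edgeR model. Most points lie left of 0 in both sets, from -0.88 to 0.29 in shAdnp and from -0.49 to 0.36 in shPogz, and none passed the test.

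Pan-neuronal markers had a lower sum than the mean of their controls in all 4 hairpin libraries, as had the GABA genes, while in shAdnp replicate 2 the excitatory sum was above that mean. The summed level of the 27 genes was 4636 and 5068 CPM in shAdnp and 5204 and 5087 CPM in the Adnp-set GFP libraries. It was 4602 and 3751 CPM in shPogz and 4862 and 4812 CPM in the Pogz-set GFP libraries. The 11 pan-neuronal markers (cytoskeletal, vesicle and RNA-binding proteins of all neurons) summed to 8981 and 8761 CPM in shAdnp against 9824 and 9800.4 CPM in the Adnp-set GFP libraries, and to 8158 and 6892 CPM in shPogz against 8267 and 8372 CPM in the Pogz-set GFP libraries. As a share of that sum, the 27 genes came to 51.6% and 57.8% in shAdnp against 53.0% and 51.9% in the Adnp-set GFP libraries. In shPogz the share was 56.4% and 54.4%, against 58.8% and 57.5% in the Pogz-set GFP libraries, so the groups did not overlap in the Pogz set and overlapped in the Adnp set. Median log2 fold changes of the 11 pan-neuronal markers were -0.13 in shAdnp and -0.20 in shPogz, and those of the 17 excitatory markers -0.13 and -0.20. In shAdnp, 6 of the 11 pan-neuronal markers had both libraries below both controls (21.0% of all tested genes) and 1 above (20.4%). In shPogz the numbers were 6 (21.3%) and 0 (19.0%). Of the 17 excitatory markers, 5 were below in this way and 1 above in shAdnp, and 3 and 1 in shPogz. The excitatory sum was 3738 and 4381 CPM in shAdnp against 4449 and 4013 CPM, and 3728 and 2701 CPM in shPogz against 3547 and 3985 CPM. The part of a general neuronal shift in the values of the GABA genes was not tested.

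Microglial markers had a median log2 fold change of 1.33 in shAdnp and 0.55 in shPogz, with 0 past the adjusted test, and the oligodendrocyte markers had a median log2 fold change of -0.11 in shAdnp and 0.46 in shPogz. Microglial markers (17 of 17 tested) summed to 2808 and 1795 CPM in shAdnp against 716 and 1043 CPM in the Adnp-set GFP libraries, and to 1672 and 2877 CPM in shPogz against 1353 and 1479 CPM in the Pogz-set GFP libraries. Oligodendrocyte markers (11 of 11) stood at 4520.0 and 2183 CPM in shAdnp against 2801 and 4197 CPM, and at 3247 and 4816 CPM in shPogz against 2801 and 3183 CPM. The 14 astrocyte markers summed to 5842 and 6525 CPM in shAdnp against 6625 and 5907 CPM, and to 5840 and 4704 CPM in shPogz against 5913 and 6182 CPM. Thus shPogz replicate 2, the lowest library for most of the GABA genes, was also the lowest for the pan-neuronal, excitatory, interneuron and astrocyte sums and the highest for the microglial and oligodendrocyte sums. What these sums contributed to the GABA gene values was not tested.

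**Figure D3:**
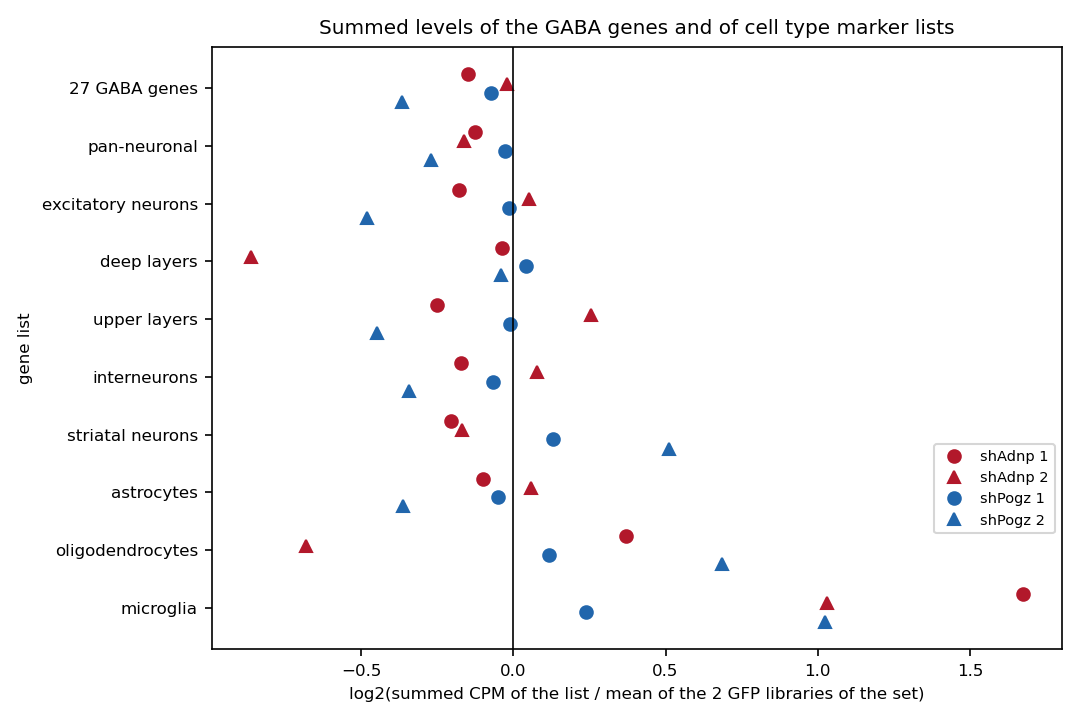
Summed CPM of the 27 GABA genes and of marker lists (rows) in the 4 hairpin libraries, as the log2 ratio to the mean of the 2 GFP libraries of the set (red, shAdnp; blue, shPogz; circle, replicate 1; triangle, replicate 2). The GABA genes and the pan-neuronal markers lie left of 0 in all 4 libraries, while the microglial sum lies right of 0 in all 4; deep and upper layer lists were chosen after values were seen.

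Among the GABA-A subunits, Gabrg3 was the most even. It encodes the gamma-3 subunit, a less common partner in the pentamer than other gamma subunits. It had 17.8 and 19.98 CPM in shAdnp, against 23.5 and 22.0 CPM in the Adnp-set GFP libraries. In shPogz it had 19.0 and 16.5 CPM, against 22.0 and 21.9 CPM in the Pogz-set GFP libraries. All 4 hairpin libraries were therefore below all 4 GFP libraries, as they were for Gabrb2 and Abat. That order was met by 3 of the 27 genes, against 2.33% of all tested genes, and the reverse order by 0, against 4.01%. It crosses the sets and so includes any offset between the controls. For Gabrg3 the log2 fold change was -0.27 in shAdnp (SE 0.13; edgeR unadjusted p = 0.0609, adjusted p = 0.625) and -0.31 in shPogz (SE 0.13; unadjusted p = 0.0371, adjusted p = 0.667). The shAdnp value was -0.17 without shAdnp replicate 1. In the model of knockdown over both sets it was -0.29 (SE 0.09; unadjusted p = 0.00675, adjusted p = 0.226). Gabrg3 spans chr7:56716465-57387188 on the minus strand of GRCm38. Its RefSeq promoter window (chr7:57387166-57387465, minus strand, 250 bases before to 50 after the start) is shown because this gene had the smallest p of the list, with a GC box (GGGCGG or its complement, the binding motif of Sp1-type factors) in capitals.
Gabrg3 promoter: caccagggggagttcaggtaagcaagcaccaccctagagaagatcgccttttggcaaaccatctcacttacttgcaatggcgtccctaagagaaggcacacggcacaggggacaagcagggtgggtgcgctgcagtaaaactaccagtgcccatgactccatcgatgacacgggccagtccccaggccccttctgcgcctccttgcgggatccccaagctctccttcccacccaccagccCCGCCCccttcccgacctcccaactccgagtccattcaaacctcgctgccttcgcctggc

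Gabrb2, which encodes a widely used beta subunit, was the most abundant GABA-A subunit gene of the list per length. It had 528 and 534 CPM in shAdnp against 619 and 591 CPM in the Adnp-set GFP libraries, and 525 and 388 CPM in shPogz against 546 and 537 CPM in the Pogz-set GFP libraries. The lowest value was again that of shPogz replicate 2. Over both sets its log2 fold change was -0.22 (SE 0.09; edgeR unadjusted p = 0.0408, adjusted p = 0.375), and -0.13 without shPogz replicate 2. Gabra3, an X-linked alpha subunit gene, had 174 and 160.1 CPM in shAdnp against 205 and 196 CPM in the Adnp-set GFP libraries, without overlap. In shPogz it had 167 and 129 CPM against 164 and 167 CPM, where replicate 1 lay between the controls. Its log2 fold change was -0.26 in shAdnp (SE 0.13; unadjusted p = 0.0713, edgeR adjusted p = 0.65) and -0.21 over both sets (SE 0.09; unadjusted p = 0.0341, edgeR adjusted p = 0.362). The controls were offset for this gene by a similar size, the Pogz-set GFP libraries being below the Adnp-set GFP libraries by -0.28 (SE 0.13; unadjusted p = 0.0608, edgeR adjusted p = 0.684). Gabrg1, a gamma subunit gene, had 23.8 and 30.1 CPM in shAdnp against 33.2 and 31.1 CPM, and 29.0 and 20.4 CPM in shPogz against 31.3 and 29.9 CPM. Its groups did not overlap in either set, with -0.26 in shAdnp (SE 0.17; edgeR adjusted p = 0.762) and -0.28 over both sets (SE 0.12; unadjusted p = 0.0373, edgeR adjusted p = 0.368). The shAdnp value was -0.08 without shAdnp replicate 1 and -0.42 without shAdnp replicate 2, and the value over both sets was -0.18 without shPogz replicate 2.

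Gabra5 held the widest spread of the list. It encodes the alpha-5 subunit, found largely outside the synapse and in deep cortical layers and hippocampus. It had 67.4 and 25.2 CPM in shAdnp, against 82.2 and 87.6 CPM in the Adnp-set GFP libraries, and 59.6 and 44.7 CPM in shPogz, against 56.1 and 67.3 CPM in the Pogz-set GFP libraries. The value of shAdnp replicate 2 was far below the other 7. The log2 fold change in shAdnp was -0.88 (SE 0.46; edgeR unadjusted p = 0.112, adjusted p = 0.717). It was -1.74 without shAdnp replicate 1, with an edgeR adjusted p of 0.043, and -0.32 without shAdnp replicate 2, so the value rests on a single library. In that library the summed level of 14 deep layer markers, a list chosen after values were seen, was 561 CPM, against 992 CPM in shAdnp replicate 1 and 1005 and 1032 CPM in the Adnp-set GFP libraries. Of these 14 markers, 11 had their lowest level of the 8 libraries there, against 13.9% of all tested genes, while Fezf2, Tbr1 and Etv1 did not. Among the 11, Foxp2 had 10.5 CPM in shAdnp replicate 2, against 31.6 CPM in replicate 1 and 33.3 and 30.2 CPM in the Adnp-set GFP libraries. The sum of 10 upper layer markers, chosen likewise, was highest there, at 2115 CPM against 1492 CPM in replicate 1 and 1797 and 1751 CPM in the Adnp-set GFP libraries. The part of the layers in the level of Gabra5 was not tested. Gabra5 (chr7:57407672-57510059) lies next to Gabrg3 in a cluster of GABA-A subunit genes on chromosome 7, yet Gabrg3 was not lowest in shAdnp replicate 2.

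A second cluster, on chromosome 5, holds Gabrg1, Gabra2, Gabra4 and Gabrb1. Gabra4, whose subunit often pairs with delta outside the synapse, had 135 and 148 CPM in shAdnp against 157 and 160.2 CPM, and 146 and 106 CPM in shPogz against 146 and 158 CPM. Gabrb1, a beta subunit gene, had 53.8 and 54.3 CPM in shAdnp against 67.0 and 61.9 CPM, and 56.2 and 36.7 CPM in shPogz against 51.2 and 61.3 CPM. Both genes were below the controls without overlap in shAdnp, and in shPogz only replicate 2 was below both controls. Gabra4 (minus strand) and Gabrb1 (plus strand) start head to head, and their annotated transcripts overlap by 388 bases in RefSeq and by 196 bases in GENCODE. The libraries were stranded per the labels, but the sources used here do not give the strand setting of the counting, so reads in the overlap may be shared. The same limit holds for the 11 of 27 genes with a gene annotated on the opposite strand. The windows of this pair are shown for their divergent start sites, with GC boxes in capitals. They are Gabra4 at chr5:71658259-71658558 (minus strand), which holds 2 GC boxes, and the first Gabrb1 start at chr5:71657671-71657970 (plus strand), which holds 0.
Gabra4 promoter: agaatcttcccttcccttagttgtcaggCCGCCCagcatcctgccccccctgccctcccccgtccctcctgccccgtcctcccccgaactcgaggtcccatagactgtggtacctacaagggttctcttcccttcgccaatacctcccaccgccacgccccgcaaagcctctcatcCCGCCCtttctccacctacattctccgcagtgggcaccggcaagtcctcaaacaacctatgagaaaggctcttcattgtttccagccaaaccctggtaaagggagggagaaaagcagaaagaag
Gabrb1 promoter, first start: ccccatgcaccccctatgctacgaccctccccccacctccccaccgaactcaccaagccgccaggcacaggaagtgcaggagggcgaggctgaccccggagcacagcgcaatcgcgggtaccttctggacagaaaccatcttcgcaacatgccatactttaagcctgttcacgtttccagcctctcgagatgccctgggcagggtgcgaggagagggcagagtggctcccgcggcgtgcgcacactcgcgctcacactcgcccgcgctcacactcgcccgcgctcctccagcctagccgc

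A RefSeq promoter window of GRCm38.p6 was found for 23 of the 27 genes, some with several starts. These genes had 30 windows, of which 16, from 14 genes, held a GC box, against 35.7% of 32851 windows of all genes. TATAAA was found in 5 of the 30, from 4 genes (13.6% of all windows), TAATTA and CACGTG in 1 each (5.29% and 7.15%), and TGACGTCA in 0 (1.79%), all searched on both strands. No matches overlap in the windows shown. A match describes letters only and shows no binding.

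Gabra2 set a single control library apart. It encodes the alpha-2 subunit, which is enriched at synapses on the axon initial segment. It had 31.0 and 40.2 CPM in shAdnp against 37.1 and 38.2 CPM in the Adnp-set GFP libraries. In shPogz it had 40.4 and 32.2 CPM, against 66.5 and 35.6 CPM in the Pogz-set GFP libraries, and 7 of the 8 libraries lay between 31.0 and 40.4 CPM. Between the controls, the Pogz-set GFP libraries were higher by 0.43 on the log2 scale (SE 0.29; edgeR unadjusted p = 0.175, adjusted p = 0.75). This turned to -0.08 without Pogz-set GFP replicate 1 and was 0.80 without Pogz-set GFP replicate 2. Gabrd, the delta subunit gene of extrasynaptic receptors, had 51.7 and 73.1 CPM in shAdnp against 57.9 and 63.1 CPM, a range that held both controls, and 55.2 and 43.2 CPM in shPogz against 59.6 and 64.2 CPM, where the groups did not overlap. The difference between the responses was -0.37 (SE 0.25; edgeR unadjusted p = 0.164, adjusted p = 0.978). It was -0.09 without shAdnp replicate 2, -0.21 without shPogz replicate 2 and -0.60 without shAdnp replicate 1.

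**Figure D4:**
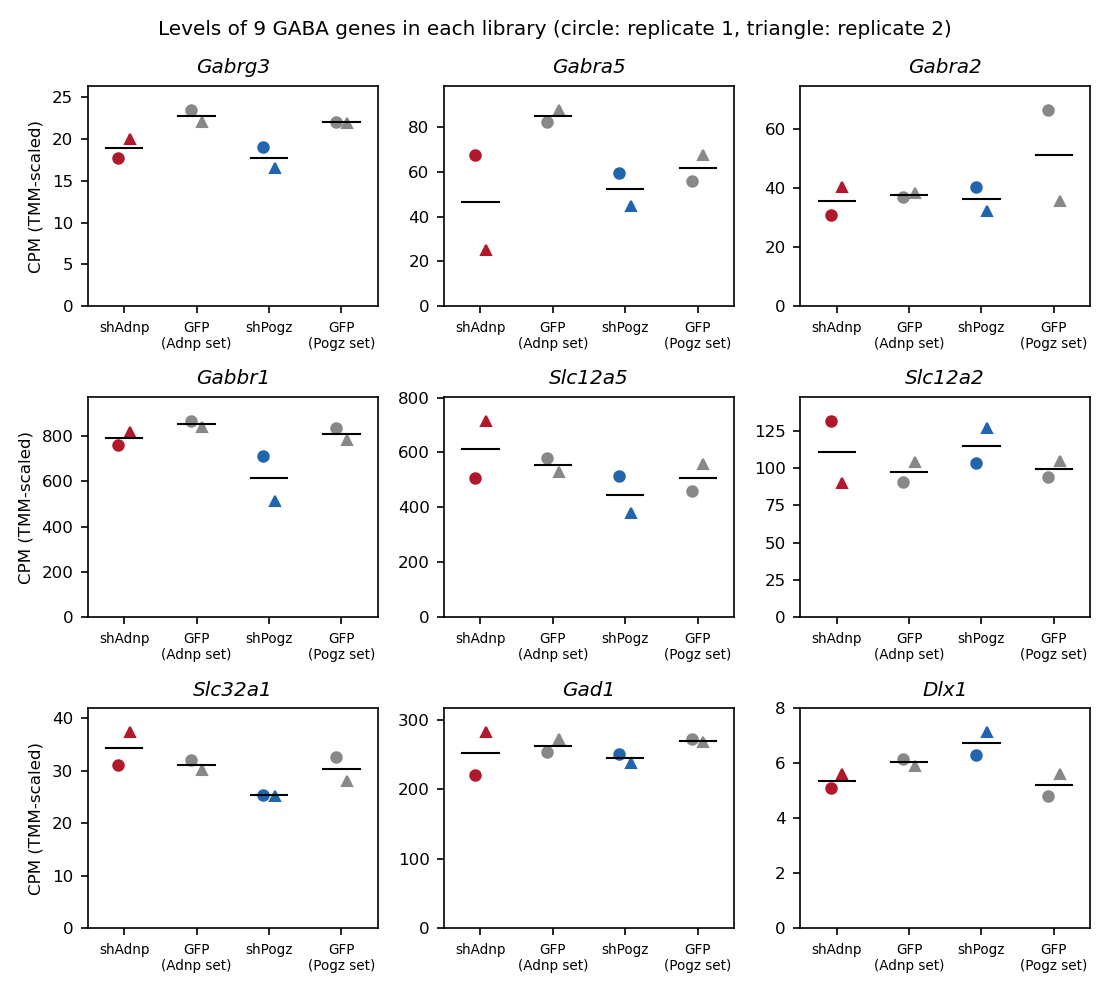
Level in CPM of 9 GABA genes (panels) in the 4 groups, with each hairpin group left of its GFP controls (circle, replicate 1; triangle, replicate 2; line, mean of the 2). Gabrg3 is lower in all 4 hairpin libraries than in all 4 GFP libraries, while Gabra5 and Gabra2 are set by shAdnp replicate 2 and Pogz-set GFP replicate 1.

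The GABA-B subunit genes had both shPogz libraries below both controls, as had 21.3% of all tested genes, although neither gene passed the test. Gabbr1, the subunit that binds GABA, had 713 and 513 CPM in shPogz against 834 and 782 CPM in the Pogz-set GFP libraries, and 762 and 817 CPM in shAdnp against 868 and 839 CPM in the Adnp-set GFP libraries. The groups did not overlap in either set. Its log2 fold change was -0.40 in shPogz (SE 0.15; edgeR unadjusted p = 0.0273, adjusted p = 0.667) and -0.26 over both sets (SE 0.11; unadjusted p = 0.0415, adjusted p = 0.376). Without shPogz replicate 2 these values were -0.18 in shPogz (edgeR unadjusted p = 0.157) and -0.14 over both sets, and without shPogz replicate 1 the value in shPogz was -0.62 (edgeR unadjusted p = 0.000671, adjusted p = 0.0612). Gabbr2, the subunit that couples to the G protein, had 291 and 194 CPM in shPogz against 318 and 328 CPM, and 295 and 361 CPM in shAdnp against 380.5 and 314 CPM, where the groups overlapped. In shPogz its log2 fold change was -0.41 (SE 0.20; edgeR unadjusted p = 0.065, adjusted p = 0.667). It was -0.15 without shPogz replicate 2 (edgeR unadjusted p = 0.376) and -0.70 without shPogz replicate 1 (edgeR unadjusted p = 0.00231, adjusted p = 0.104). The responses of Gabbr1 differed by -0.29 between the sets (SE 0.22; edgeR adjusted p = 0.978), so no difference between shPogz and shAdnp was shown. With shPogz replicate 2 left out this difference came to -0.07, and with shPogz replicate 1 left out to -0.50.

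All 5 genes of GABA synthesis, vesicle loading, uptake and breakdown were below the controls without overlap in shPogz, by small amounts. The same order was found for 21.3% of all tested genes. Gad1 and Gad2 encode the glutamate decarboxylases, and Slc32a1 the vesicular transporter. Gad1 had 251 and 239 CPM in shPogz against 272 and 268 CPM in the Pogz-set GFP libraries, and 221 and 283 CPM in shAdnp against 254 and 272 CPM in the Adnp-set GFP libraries. Gad2 had 124 and 113 CPM in shPogz against 148 and 124 CPM, less than 1 CPM below the nearer control in replicate 1, and 115 and 135 CPM in shAdnp against 132 and 125 CPM. Slc32a1 had 25.5 and 25.1 CPM in shPogz against 32.6 and 28.0 CPM, and 31.1 and 37.4 CPM in shAdnp against 32.0 and 30.2 CPM. For Slc32a1 the log2 fold change in shPogz was -0.26 (SE 0.13; edgeR unadjusted p = 0.079, adjusted p = 0.667), and -0.12 without Pogz-set GFP replicate 1. This gene had the smallest p of the list for the difference between the responses, -0.40 (SE 0.18; edgeR unadjusted p = 0.0581, adjusted p = 0.978), which was -0.24 without shAdnp replicate 2 and -0.26 without Pogz-set GFP replicate 1. The log2 ratio of Gad1 to Gad2, which is free of library scaling, was 0.94 and 1.07 in shAdnp against 0.94 and 1.13 in the Adnp-set GFP libraries, and 1.02 and 1.08 in shPogz against 0.88 and 1.11 in the Pogz-set GFP libraries, so both hairpin groups stayed within their controls' range.

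Abat, the transaminase that breaks down GABA, had 259 and 234 CPM in shPogz against 309 and 268 CPM, and 247 and 267 CPM in shAdnp against 269 and 276 CPM. Its log2 fold change in shPogz was -0.23 (SE 0.11; edgeR unadjusted p = 0.0761, adjusted p = 0.667), and -0.10 without Pogz-set GFP replicate 1. Slc6a11, a GABA transporter found largely on astrocytes, had 93.7 and 72.2 CPM in shPogz against 99.9 and 98.6 CPM, and 74.3 and 96.5 CPM in shAdnp against 101 and 96.3 CPM. Over both sets it was at -0.23 (SE 0.10; edgeR unadjusted p = 0.0462, adjusted p = 0.389), and at -0.15 without shAdnp replicate 1. Its low values were those of shAdnp replicate 1 and shPogz replicate 2, the libraries with the lower astrocyte sum of their groups, and that relation was not tested.

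The chloride transporter genes gave no common direction. Slc12a5 encodes KCC2, which exports chloride from mature neurons, and Slc12a2 encodes NKCC1, which imports it and is also made by glia. Slc12a5 had 506 and 716 CPM in shAdnp against 581 and 531 CPM in the Adnp-set GFP libraries, and 514 and 379.7 CPM in shPogz against 460.5 and 557 CPM in the Pogz-set GFP libraries. Slc12a2 had 132 and 90.2 CPM in shAdnp against 90.3 and 104 CPM, and 103 and 127 CPM in shPogz against 93.8 and 104 CPM. Within each hairpin group the library with more Slc12a5 had less Slc12a2. The log2 ratio of Slc12a5 to Slc12a2, as read counts without correction for length, was 1.94 and 2.99 in shAdnp against 2.68 and 2.35, and 2.32 and 1.58 in shPogz against 2.30 and 2.42. It was thus lowest in shAdnp replicate 1 and shPogz replicate 2, the libraries with the higher oligodendrocyte and microglial sums of their groups. What those cells contributed to Slc12a2 was not tested.

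Gabarap, which encodes a ubiquitin-like protein of receptor trafficking and autophagy, showed the same order. It had 139.7 and 110.4 CPM in shAdnp against 109 and 122 CPM, and 116 and 139 CPM in shPogz against 106 and 112 CPM. Both shPogz libraries were above both controls, and the highest values were those of shAdnp replicate 1 and shPogz replicate 2. Its relative Gabarapl1 had 626 and 558 CPM in shAdnp against 617 and 683 CPM, and 595 and 549 CPM in shPogz against 603 and 578 CPM. Between the controls Gabarapl1 was lower in the Pogz set by -0.14 (SE 0.12; edgeR adjusted p = 0.796), and by -0.06 without Adnp-set GFP replicate 2.

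Among the scaffold and adhesion genes, Gphn was below the controls in both sets by little, while Igsf9b lay above their mean in shAdnp and below it in shPogz. Gphn, the gephyrin gene, had 91.6 and 96.7 CPM in shAdnp against 102 and 107 CPM (log2 fold change -0.15, SE 0.10; edgeR adjusted p = 0.754), and 91.6 and 84.3 CPM in shPogz against 97.5 and 95.2 CPM. Its shAdnp value was -0.10 without shAdnp replicate 1. The controls differed by -0.12 for this gene (SE 0.10; edgeR adjusted p = 0.798). Igsf9b, an adhesion protein of inhibitory synapses, had 60.6 and 83.8 CPM in shAdnp against 60.8 and 57.2 CPM, with the high value in replicate 2 alone (log2 fold change 0.29, SE 0.16; edgeR unadjusted p = 0.0987, adjusted p = 0.700). That value was 0.52 without shAdnp replicate 1 and 0.05 without shAdnp replicate 2. In shPogz it had 59.6 and 48.6 CPM against 61.3 and 60.7 CPM. The difference between the responses was -0.46 (SE 0.22; edgeR unadjusted p = 0.0678, adjusted p = 0.978), and -0.19 without shAdnp replicate 2. Iqsec3, an exchange factor that binds gephyrin, had 119 and 161 CPM in shAdnp against 150.3 and 121 CPM, and 111 and 83.5 CPM in shPogz against 132 and 107 CPM. Its responses differed by -0.35 (SE 0.29; edgeR adjusted p = 0.978). Without 1 library this ran from -0.56 (without shAdnp replicate 1) to -0.10 (without shAdnp replicate 2), with -0.16 without shPogz replicate 2, -0.17 without Pogz-set GFP replicate 1 and -0.20 without Adnp-set GFP replicate 2. Slitrk3, a postsynaptic adhesion protein that organises inhibitory synapses, had 53.0 and 64.1 CPM in shAdnp against 69.6 and 61.6 CPM, and 59.4 and 40.6 CPM in shPogz against 59.2 and 61.0 CPM.

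The interneuron factor Dlx1 was the single member that left its controls in opposite directions. It encodes a homeobox factor of interneurons of the ganglionic eminences and, in the embryo, of striatal neurons. It had 5.09 and 5.60 CPM in shAdnp against 6.16 and 5.91 CPM in the Adnp-set GFP libraries, both lower. In shPogz it had 6.29 and 7.15 CPM against 4.81 and 5.63 CPM in the Pogz-set GFP libraries, both higher. The log2 fold change was 0.36 in shPogz (SE 0.19; edgeR unadjusted p = 0.0835, adjusted p = 0.667), and the responses differed by 0.54 (SE 0.26; unadjusted p = 0.0695, edgeR adjusted p = 0.978). Opposite directions without overlap were found for 1 of the 27 genes, against 4.89% of all tested genes, and the Pogz-set GFP libraries were already below the Adnp-set GFP libraries by -0.21 (SE 0.19; edgeR adjusted p = 0.815). That offset was -0.10 without Pogz-set GFP replicate 1 and -0.35 without Pogz-set GFP replicate 2. Dlx1 was the least abundant of the 27 genes, and another gene is annotated on its opposite strand. Its RefSeq promoter window (chr2:71529195-71529494, plus strand) is shown because this gene alone left both controls in opposite directions in the sets. It held 27 CpG sites and 69.3% G and C, against medians of 7 and 52.7% over all windows, and its GC box is in capitals.
Dlx1 promoter: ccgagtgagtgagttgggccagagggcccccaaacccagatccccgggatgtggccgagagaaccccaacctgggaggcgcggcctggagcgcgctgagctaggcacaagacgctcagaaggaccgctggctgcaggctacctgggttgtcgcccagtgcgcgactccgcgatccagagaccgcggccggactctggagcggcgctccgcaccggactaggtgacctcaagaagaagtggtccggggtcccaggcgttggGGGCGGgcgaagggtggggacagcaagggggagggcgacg

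Of the tested markers of striatal neurons, 11 had a log2 fold change above 0 in shPogz, against 46.4% of all tested genes, and 0 passed the adjusted test. Of 14 listed, 12 were tested, and 8 of the 12 had both shPogz libraries above both controls, against 19.0% of all tested genes, with a median log2 fold change of 0.70. In shAdnp 7 of the 12 were above 0, against 47.7% of all tested genes, with a median of 0.19. Their summed level was 359 and 469 CPM in shPogz against 326 and 331 CPM in the Pogz-set GFP libraries, and 314 and 322 CPM in shAdnp against 373 and 351 CPM in the Adnp-set GFP libraries, so in shAdnp the median was above 0 while the sum was below its controls. The defining marker Drd2 was low in all libraries, at 1.73 and 4.06 CPM in shPogz against 0.884 and 0.952 CPM, and Six3 was at or near 0 in all 8. The part of such cells in the level of Dlx1 was not tested. Lhx6, a factor of interneurons of the medial ganglionic eminence, showed no such pattern, with 14.7 and 14.6 CPM in shPogz against 16.0 and 14.5 CPM, and 16.0 and 16.99 CPM in shAdnp against 17.3 and 15.8 CPM. Erbb4, the neuregulin receptor of interneurons, had 77.8 and 71.4 CPM in shPogz against 71.8 and 76.7 CPM, and 61.2 and 82.1 CPM in shAdnp against 83.3 and 77.3 CPM.

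Interneuron markers other than the 27 genes gave 37 tested of 39 listed. In shAdnp 21 of the 37 were above 0 (median 0.06), against 47.7% of all tested genes. At an unadjusted p under 0.05, 2 were higher, against 6.67% of all tested genes, and 1 lower, against 1.69%. In shPogz 28 of the 37 were below 0 (median -0.15), against 53.6% of all tested genes. At that p, 1 was higher, against 4.05% of all tested genes, and 5 lower, against 2.65%. Their summed level was 1835 and 2178 CPM in shAdnp against 2061 and 2071 CPM, and 1911 and 1579 CPM in shPogz against 2002 and 2006 CPM. The sum of Gad1, Gad2 and Slc32a1 stood at 367 and 455 CPM in shAdnp against 418 and 427 CPM and at 401 and 377 CPM in shPogz against 452 and 421 CPM.

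Other genes of the pathway were counted as well, from a list of 54 receptor subunits, transporters, enzymes, synaptic partners and kinases of chloride transport that shares no gene with the 27. Of these, 50 were tested and 0 were called by edgeR in any comparison, while DESeq2 called 1, higher in shAdnp, and limma-voom 0. In shAdnp 36 of the 50 were below 0 (median -0.12), against 52.3% of all tested genes. Both shAdnp libraries were below both controls for 20 (21.0% of all tested genes) and above both for 4 (20.4%). At an unadjusted p under 0.05, 3 were higher, against 6.67% of all tested genes, and 3 lower, against 1.69%. In shPogz 36 of the 50 were again below 0 (median -0.11), against 53.6% of all tested genes. Both shPogz libraries were below both controls for 15 (21.3% of all tested genes) and above both for 2 (19.0%). At that p, 0 were higher, against 4.05% of all tested genes, and 1 lower, against 2.65%. Over both sets 40 of the 50 were below 0, against 55.3% of all tested genes. At that p, 3 were higher, against 8.84% of all tested genes, and 5 lower, against 3.62%.

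The model with a term for set and a term for knockdown asks what both hairpin groups share, with 4 libraries on each side. Here 23 of the 27 genes were below 0, against 55.3% of all tested genes, and 4 above, against 44.7%, with a median of -0.14 against -0.02. None of the 27 was called by edgeR, where 0% of all tested genes were called, nor by DESeq2 or limma-voom. At an unadjusted p under 0.05, 6 were lower by edgeR (Gabrg3, Gabra3, Gabrg1, Gabrb2, Gabbr1 and Slc6a11), against 3.62% of all tested genes lower, and 0 were higher, against 8.84%. DESeq2 gave 6 and limma-voom 9, and the share of all tested genes was not counted for these tools. All 9 GABA-A subunits were below 0, from -0.56 to -0.14, and 4 of them were among the 6. The count at an unadjusted p under 0.05 was 2 with upper quartile scaling. It also changed with the library left out. The share of all tested genes was not counted in these fits. A hairpin library was the lowest of the 8 for 24 of the 27 genes, against 56.1% of all tested genes. That count rests mainly on shPogz replicate 2, which was lowest for 19, against 25.5% of all tested genes. The number was 3 for shAdnp replicate 1, 2 for shAdnp replicate 2 and 0 for shPogz replicate 1. A GFP library was the highest for 18, against 50.4% of all tested genes.

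The test of the difference between the responses called 0 of the 27 by edgeR, DESeq2 and limma-voom, where edgeR called 0% of all tested genes. At an unadjusted p under 0.05 all 3 tools gave 0 of the 27, against 1.10% of all tested genes higher and 2.41% lower by edgeR. By direction, 19 of the 27 differences were below 0, against 53.1% of all tested genes, and 8 above, against 46.9%. The count at an unadjusted p under 0.05 changed with the library left out, and the share of all tested genes in those fits was not counted. Standard errors of the difference ran from 0.14 for Gphn to 0.65 for Gabra5 on the log2 scale, so a modest difference was not detectable with 2 libraries per group.

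The GFP libraries of the sets were compared with each other to see which offsets are present without a hairpin. For the Pogz-set relative to the Adnp-set controls, 19 of the 27 genes were below 0, against 48.2% of all tested genes, and 8 above, against 51.8%, with a median of -0.08 against 0.01. Both Pogz-set libraries were below both Adnp-set libraries for 10 of the 27, against 22.3% of all tested genes, and above both for 0, against 21.2%. None of the 27 was called by edgeR, against 0.00574% of all tested genes, and none by DESeq2 or limma-voom, with 0 at an unadjusted p under 0.05 by all 3, against 4.65% of all tested genes higher and 2.70% lower by edgeR. Gabrb2 differed by -0.16 (SE 0.14; edgeR adjusted p = 0.809). This comparison shares its libraries with those of the hairpin groups. Fold changes of each hairpin group were taken only against the GFP libraries of its own set. The orders over all 8 libraries cross the sets and so include offsets between the controls.

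Per length, mean levels of the list in the GFP libraries ran from 4.96 to 1467 TPM (counts divided by the length of the union of annotated exons, then scaled to the same total in every library). Gabarapl1 was the highest at 1467 ± 66.5 TPM over the 4 GFP libraries (SD, n = 4). Gabbr1 followed at 510.5 ± 28.5 TPM, then Gabrb2 at 429.6 ± 22.1, Slc12a5 at 340.4 ± 27.9 and Gabarap at 290.0 ± 8.03. The ranges of these 5 genes stood apart from each neighbour in the order. In the middle, Gphn at 128 ± 3.70, Gabra4 at 122 ± 2.86, Gabra5 at 117 ± 17.9, Gad2 at 108 ± 13.5, Gabrd at 101 ± 5.74 and Slc6a11 at 93.5 ± 5.74 TPM overlapped each with the next. Gad1 stood at 167 ± 10.3 TPM and was above Gad2 in every GFP library. At the low end were Gabrg3 at 8.94 ± 0.47 and Dlx1 at 4.96 ± 0.36 TPM, which stood apart from each other and from Lhx6 at 15.8 ± 1.29 TPM. Of the 26 neighbouring pairs, 15 overlapped in their GFP values and 11 did not. With the longest transcript as the length, 8 of the 27 genes kept their rank and the largest move was 3 ranks.

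**Figure D5:**
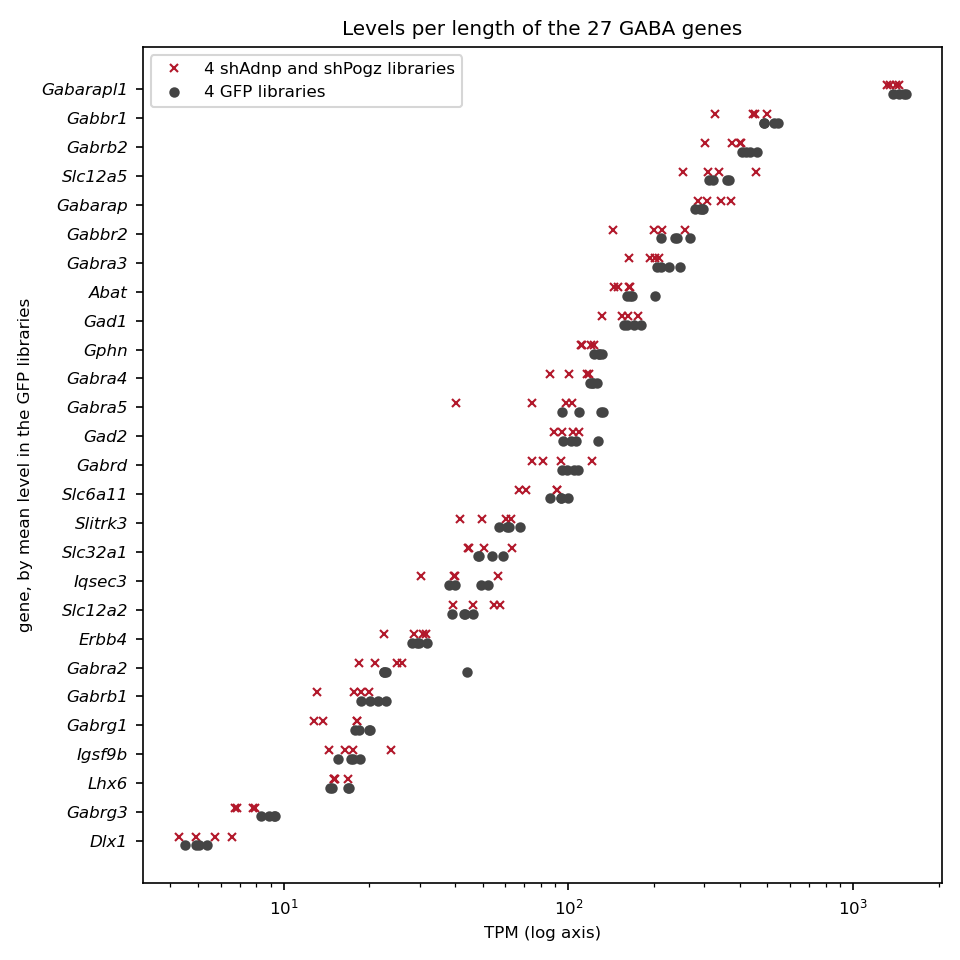
Level per length in TPM (log axis) of the 27 GABA genes, ordered by their mean in the 4 GFP libraries, with crosses for the 4 shAdnp and shPogz libraries and dots for the 4 GFP libraries. Gabarapl1 lies at about 1467 TPM and Dlx1 at 4.96 TPM, and the hairpin libraries of Gabra5 reach down to 40.3 TPM.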

How the data were processed

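The deposited values are unnormalised counts of reads by gene symbol, a file for each library. STAR, featureCounts, DESeq2 and build mm10 are named in the submitters' processing notes, while Cutadapt and TopHat2 with RefSeq transcripts stand in the labels' protocols. Versions, the strand setting and the handling of multiply matching reads are not stated there. Identifiers that had become dates (25 per file, 0.306% to 0.337% of counts) or were blank (2 per file) were left out. A column numbered 3 was assigned to shPogz replicate 2, whose file holds it.

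The counts entered edgeR 4.0.16 (R 4.3.3) with filterByExpr by group (minimum count 10) and TMM scaling. A robust quasi-likelihood fit of all 8 libraries with a mean for each group had 4 residual degrees of freedom. The model with terms for set and knockdown was a separate fit of the same libraries, with its own estimate of the spread. P-values were adjusted by Benjamini-Hochberg over the 17415 genes tested, at 0.05. With 2 libraries per group, described as biological duplicates, the spread is shared across genes and groups. No libraries were merged, since chi-square per degree of freedom between them was 15.0 to 394. Alternatives were DESeq2 1.42.0, limma-voom (limma 3.58.1), RLE and upper quartile scaling, TMM without Rn45s, other filters, only the 4 libraries of a set, a replicate block and each library left out. TPM used exon lengths of the GENCODE annotation on GRCm38. The fits were tested on simulated data. Fold changes with errors are given for the 6 genes with the smallest p in each comparison. The genes, gene lists and alternatives were chosen with earlier results of these data known, and the layer lists after values were seen.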

Additional observations from a re-analysis of the deposited data

Results flagged for a closer look

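Dlx1 stood apart because both of its libraries lay below the controls in shAdnp and above them in shPogz. The shPogz response minus the shAdnp response was 0.54 on the log2 scale (SE 0.26), and the interaction did not pass (edgeR adjusted p = 0.978). This order was found for 1 of the 27 genes and for 4.89% of all tested genes, a share near the background. Groups of 2 libraries are too small for a test of single outlying samples.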

How the results depend on the processing

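Of 486 values of the named genes under the alternatives, 484 kept their direction and side of the threshold. As no named gene passed with all libraries, the same side here means not passing. The size of the fold changes was not part of this count. Gabra5 in shAdnp passed without shAdnp replicate 1 (-1.74), and Gabra2 between the controls reversed to -0.081 without Pogz-set GFP replicate 1 (up to 0.802 without the second, against 0.433 with all libraries). Over all genes, DESeq2 called 420 in shAdnp, 100 in shPogz, 2 for the difference, 711 over both sets and 73 between the controls, where edgeR called 0, 0, 0, 0 and 1. With a replicate block, edgeR called 175 genes in shAdnp, 31 in shPogz and 405 over both sets, while the GABA genes called stayed at 0. Same-numbered libraries did not deviate together (r of -0.01 in the Adnp set and 0.05 in the Pogz set, 2 pairs each), so the numbers are not shown to pair the libraries, and no block was fitted between the controls. Without a low-count filter, 6 genes were called between the controls. At an unadjusted p under 0.05, limma-voom gave 2 of the 27 genes in shAdnp. In shPogz the 1 CPM filter gave 1 and the fit of the 4 libraries of the set 0. Upper quartile scaling gave 2 over both sets. The share of all tested genes under these alternatives was not counted. The rank by level was the same for 8 of the 27 genes with the longest transcript.

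With each library left out in turn, genes called ranged from 0 to 8 in shAdnp, 0 to 153 in shPogz, 0 to 4 for the difference, 0 to 556 over both sets and 0 to 6 between the controls. GABA genes called ranged from 0 to 1 in shAdnp. Those at an unadjusted p under 0.05 ranged from 0 to 3 in shAdnp, 0 to 12 in shPogz, 0 to 4 for the difference, 1 to 12 over both sets and 0 to 1 between the controls. The median over the 27 genes ranged from -0.195 to -0.019 in shAdnp, from -0.376 to -0.055 in shPogz and from -0.206 to -0.016 for the difference. The causes were not tested. Each of these fits left 1 library in a group, and the share of all tested genes at an unadjusted p under 0.05 was not counted. The ranges of GABA genes at that p therefore cannot be set against a background, and no conclusion is drawn from them. Depth was at least 136 reads per gene and library.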

Other observations

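A pair of genes chosen after their values were seen separated the sets and not the treatments. Wdfy1 had 20.03 and 20.5 CPM in shAdnp against 20.8 and 18.1 CPM in the Adnp-set GFP libraries, and 57.6 and 78.1 CPM in shPogz against 64.7 and 65.6 CPM in the Pogz-set GFP libraries. Nnt, a mitochondrial transhydrogenase gene, had 29.6 and 25.3 CPM in shAdnp against 25.9 and 28.3 CPM, and 45.9 and 39.2 CPM in shPogz against 42.0 and 51.0 CPM. Gabra2 did not follow this order, being high in Pogz-set GFP replicate 1 alone.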
